A study of Mus musculus with 6 samples.

Results

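Protein that enters the secretory pathway folds in the endoplasmic reticulum (ER), and 43 genes of that folding machinery, of the unfolded protein response and of ER-associated degradation were examined here, out of 54532 genes in the count table. They were taken by gene symbol, and each of the 43 symbols was found. Ddit3 was listed under 2 gene IDs, of which ENSMUSG00000116429 had 0 reads in all 6 libraries, so ENSMUSG00000025408 was used. The genes fall into 7 roles, which are 11 chaperones and cofactors, 6 disulphide and prolyl isomerases, 2 lectin chaperones, 4 genes of the IRE1 and ATF6 arms, 7 of the PERK arm, 8 of ER-associated degradation and 5 of the translocon.

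The samples were bulk RNA libraries from splenic naive CD4+ T cells of C57BL/6 mice, 3 from cells cultured with neutrophil extracellular traps (NETs, the chromatin and granule protein that neutrophils expel) and 3 from cells cultured with vehicle. Both groups received CD3/CD28 beads, IL-2 and neutralising antibodies to IFNγ and IL-4 throughout the 72 h culture, so every library comes from activated cells. Neither the dose and origin of the NETs nor the sex, age and number of the mice is given by the sources at hand. Whether replicates came from different mice or different wells is not stated either, and the p-values below cover no more than the spread among these 6 libraries, which may be technical.

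Unfolded protein in the ER lumen draws the chaperone BiP away from membrane sensors. The sensor IRE1 then splices the mRNA of the transcription factor XBP1, ATF6 is cut in the Golgi to release its own transcription factor, and the kinase PERK phosphorylates eIF2α, which slows translation while favouring that of ATF4. XBP1 and ATF6 drive genes for chaperones, for translocation and for degradation, while ATF4 drives amino acid supply and, through CHOP, cell death genes. In lymphocytes the pathway is best known from plasma cells, where XBP1 is needed for antibody secretion.

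Depth lay between 15657622 and 18655997 reads per library, and TMM scaling factors between 0.989 and 1.01. The first principal component held 32.8% of the variance over 13900 tested genes and did not separate the treatments, since the third vehicle library (−11.5) had nearly the score of the second NETs library (−11.9). The share of reads on mitochondrial genes did not overlap between the groups, at 1.2%, 1.46% and 1.37% in NETs replicates 1 to 3 and 1.71%, 1.67% and 1.6% in vehicle replicates 1 to 3, and its part in the differences below was not tested. Because of the score of vehicle replicate 3, values without it are also given below. It was singled out for its likeness to a NETs library, so leaving it out can widen the difference between groups over all genes. Those values show how much rests on this library and are not further support. The 9 T cell markers, Cd4, Cd28 and the CD3 chains among them, were summed in CPM (reads of a gene scaled to the library's total). Their sum lay between 4710 and 5100 CPM in NETs libraries and between 4640 and 5130 CPM in vehicle libraries. Of the CD8 markers, Cd8a averaged 1.49 CPM with NETs and 1.67 CPM with vehicle. Cd8b1 was more abundant, at 15.26 CPM with NETs and 17.96 CPM with vehicle. Markers of B and plasma cells, which carry much ER, summed to between 20.4 and 33.7 CPM with NETs and between 24.1 and 32.0 CPM with vehicle over 10 genes, of which none was at 0 in all libraries and 1, Derl3, is also among the 43. Neutrophil markers summed to between 4.72 and 5.93 CPM with NETs and between 2.55 and 3.19 CPM with vehicle over 10 genes, so the groups did not overlap. Among them S100a9 had 60 reads over the NETs libraries and 0 over the vehicle libraries, and Ly6g was at 0 in every library. Macrophage and dendritic markers summed to between 40.0 and 52.3 CPM with NETs and between 28.8 and 40.6 CPM with vehicle over 8 genes. The part of these other cell types in the values below was not tested, and in bulk RNA fewer cells of a type cannot be told apart from less RNA per cell.

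Levels were compared per length, as the FPKM that the authors deposited (fragments scaled to a length and to the library's total). The length used is not stated and for many members is not the deposited gene length, so ranks between genes depend on it. On this scale 2 members of the glycoprotein folding cycle were the most abundant of the 43 genes. Pdia3, the disulphide isomerase that works with the lectin chaperones, came first at 520 ± 28.1 FPKM with NETs and 513 ± 30.8 FPKM with vehicle (SD, n = 3 each). Calr, the lectin chaperone calreticulin, was next at 416 ± 18.7 FPKM with NETs and 407 ± 26 FPKM with vehicle. P4hb, the classical protein disulphide isomerase, stood at 278 ± 26.4 FPKM with NETs and 262 ± 25.1 FPKM with vehicle. These first places were separated by more than their spread, whereas P4hb and the next gene, Hsp90b1, the ER form of Hsp90, at 240 ± 12.4 FPKM with NETs and 249 ± 3.5 FPKM with vehicle, lay within the sum of their SDs. Hspa5, which encodes BiP, and Canx, the membrane lectin chaperone calnexin, were likewise not separable. Hspa5 averaged 197 ± 6.26 FPKM with NETs and 189 ± 11.7 FPKM with vehicle, and Canx 195 ± 27.2 FPKM with NETs and 182 ± 25.8 FPKM with vehicle.

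The sensors sat below Hspa5 on the same scale. Eif2ak3, which encodes PERK, averaged 47.4 ± 1.13 FPKM with NETs and 46.5 ± 5.41 FPKM with vehicle, and Atf6b 49.9 ± 2.99 FPKM with NETs and 44 ± 4.63 FPKM with vehicle. Atf6 averaged 6.32 ± 0.97 FPKM with NETs and 6.42 ± 0.213 FPKM with vehicle. Ern1, which encodes IRE1α, averaged 4.2 ± 0.285 FPKM with NETs and 5.28 ± 0.858 FPKM with vehicle, the lowest of the sensors in both groups. Xbp1 itself was abundant, at 117 ± 12.2 FPKM with NETs and 92.1 ± 10.8 FPKM with vehicle, and so was Atf4, at 75.4 ± 9.53 FPKM with NETs and 87.7 ± 8.09 FPKM with vehicle. At the low end stood Derl3, a derlin known from secretory cells, Pdia5, Asns, Atf3 and Chac1. Asns, asparagine synthetase and a standard ATF4 target, averaged 1.5 ± 0.359 FPKM with NETs and 1.16 ± 0.434 FPKM with vehicle. Chac1, a glutathione-degrading ATF4 target, averaged 0.321 ± 0.125 FPKM with NETs and 0.247 ± 0.180 FPKM with vehicle, and with 28 reads over the NETs libraries and 21 over the vehicle libraries it was the only member that the filter on low counts removed.

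**Figure D1:**
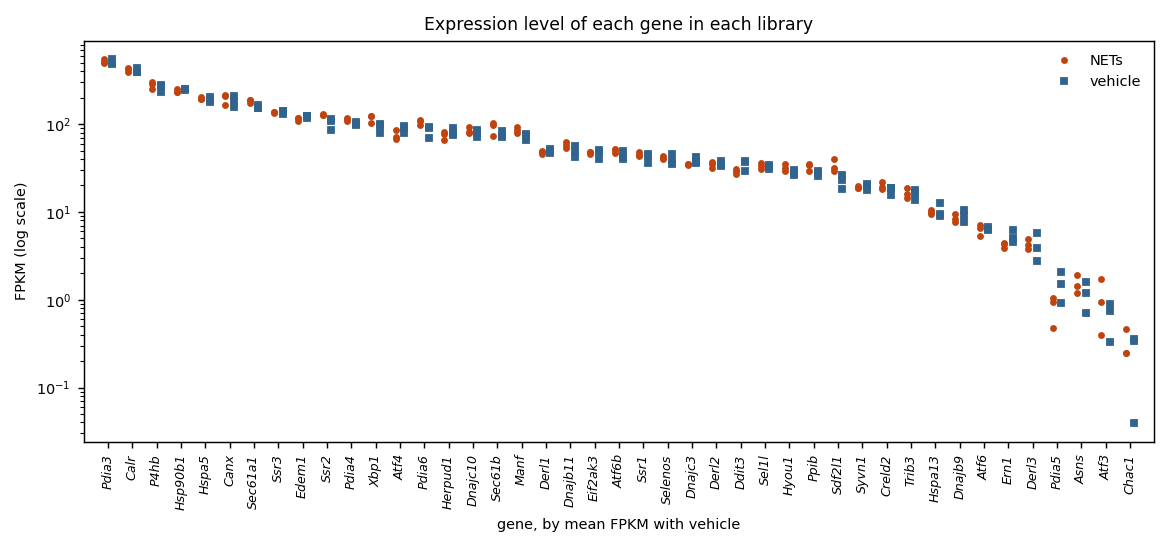
FPKM on a log scale for each of the 43 genes (x axis, in order of the mean with vehicle), with circles for the 3 NETs libraries and squares for the 3 vehicle libraries. Pdia3 and Calr lead at over 400 FPKM in both groups' means, and Pdia5, Asns, Atf3 and Chac1 end the order with means under 2 FPKM in both groups.

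Some promoters of these genes, though not most, carry the letters by which the pathway is known. RefSeq promoter windows on build GRCm38.p6, from 250 bases before to 50 after a start, were at hand for 36 of the 43 genes, and the other 7 (Atf6, Derl1, Hspa13, Hyou1, Manf, Sec61a1 and Ssr2) were not searched. Both strands were searched for the ER stress response element, ERSE, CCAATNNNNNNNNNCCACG, which NF-Y and ATF6 or XBP1 bind, for ERSE-II, which is ATTGG, any base and CCACG, for the XBP1 element UPRE, TGACGTGG, and for the C/EBP-ATF element CARE, TGATGNAA, which ATF4 binds. ERSE was found in 9 of the 36 (25%), against 39 of all 32851 windows (0.119%). ERSE-II was found in 2 (5.56%, against 0.0365% of all windows), CARE in 5 (13.9%, against 3.97%) and UPRE in 0 (against 0.676%). No matches overlapped each other, and Herpud1 held both a CARE and an ERSE-II. The 10 ERSE matches are set out from CCAAT to CCACG, in the direction of the element, with its fixed letters in capitals.
Pdia6: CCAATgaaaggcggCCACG
Dnajc3: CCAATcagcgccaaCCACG
Creld2: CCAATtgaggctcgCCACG
Canx: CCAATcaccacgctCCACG
Hspa5: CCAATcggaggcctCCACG
Hsp90b1 upstream: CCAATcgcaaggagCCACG
Hsp90b1 downstream: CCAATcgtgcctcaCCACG
Calr: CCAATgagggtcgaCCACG
Syvn1: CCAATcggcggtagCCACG
Derl3: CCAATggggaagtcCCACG

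Among them were BiP, GRP94 (Hsp90b1, which held 2), both lectin chaperones and Pdia6. The distance from the element to the start differed between genes, from 44 bases before it for the first base of the Syvn1 match to 212 bases before it for the upstream match of Hsp90b1. The CARE matches lay in Asns, Atf3, Trib3, Chac1 and Herpud1, and 4 of these 5 are genes of the PERK arm. Whole windows are given for the 4 genes with an ERSE or a CARE and the smallest p-values among the genes detailed here, to show how the elements sit beside the start. Their fixed letters are in capitals, the last 50 letters lie at and after the start, and the matches of the opposite strand appear reversed and complemented.
Pdia6: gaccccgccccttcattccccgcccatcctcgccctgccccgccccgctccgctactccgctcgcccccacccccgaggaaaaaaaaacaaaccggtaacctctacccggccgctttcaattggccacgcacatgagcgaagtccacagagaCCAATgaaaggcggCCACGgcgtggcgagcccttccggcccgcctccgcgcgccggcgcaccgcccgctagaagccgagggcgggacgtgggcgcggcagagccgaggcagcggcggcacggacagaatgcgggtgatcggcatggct
Herpud1: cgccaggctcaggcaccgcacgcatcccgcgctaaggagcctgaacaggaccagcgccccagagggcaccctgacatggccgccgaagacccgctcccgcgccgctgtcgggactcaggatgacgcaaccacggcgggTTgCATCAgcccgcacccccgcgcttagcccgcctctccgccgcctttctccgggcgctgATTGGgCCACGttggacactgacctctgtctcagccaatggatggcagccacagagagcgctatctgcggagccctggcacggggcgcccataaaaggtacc
Hspa5: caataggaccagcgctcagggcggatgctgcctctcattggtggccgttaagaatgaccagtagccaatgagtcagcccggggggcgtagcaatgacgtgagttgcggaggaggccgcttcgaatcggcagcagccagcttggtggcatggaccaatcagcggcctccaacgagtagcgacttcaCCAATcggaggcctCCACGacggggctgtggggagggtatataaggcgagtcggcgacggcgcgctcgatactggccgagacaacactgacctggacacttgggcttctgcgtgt
Asns: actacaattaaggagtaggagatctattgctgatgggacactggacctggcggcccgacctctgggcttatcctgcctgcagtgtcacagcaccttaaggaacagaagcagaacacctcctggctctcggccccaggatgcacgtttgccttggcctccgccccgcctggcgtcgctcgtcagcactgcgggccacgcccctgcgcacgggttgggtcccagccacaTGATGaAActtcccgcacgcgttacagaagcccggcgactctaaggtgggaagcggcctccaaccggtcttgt

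These windows are at chr12:17266339-17266638 on the plus strand for Pdia6, chr8:94386179-94386478 on the plus strand for Herpud1, chr2:34771840-34772139 on the plus strand for Hspa5 and chr6:7693160-7693459 on the minus strand for Asns. A match describes letters in the window and is not evidence of binding in these cells.

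**Figure D2:**
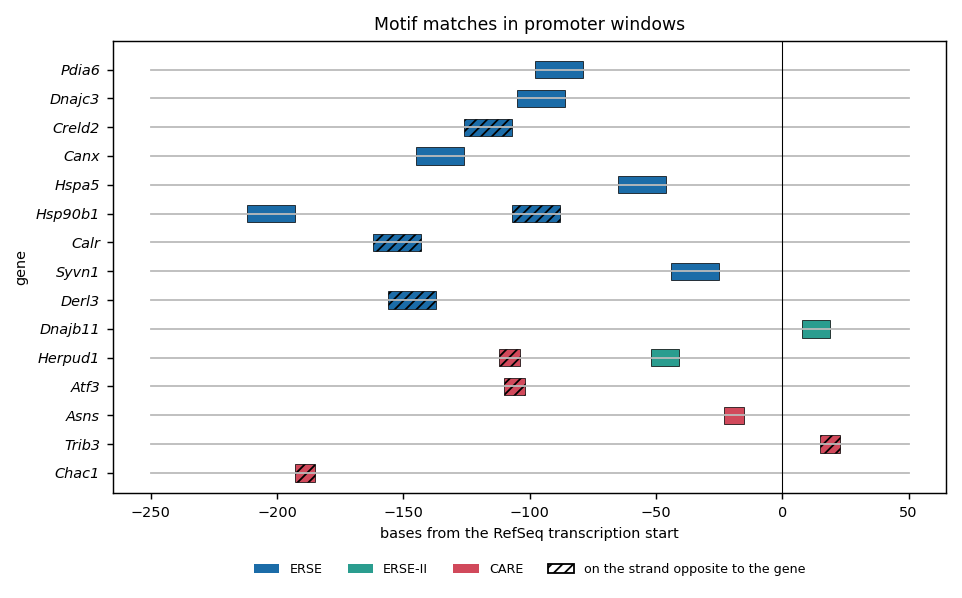
Position of each motif match in the promoter window of 15 genes, in bases from the RefSeq transcription start (x axis, 0 at the start), with ERSE, ERSE-II and CARE in different colours and hatching for the strand opposite to the gene. The ERSE matches of 9 genes all lie before the start, while Dnajb11 and Trib3 have their match just after it.

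The question for each gene was whether NETs moved it. Counts were tested with edgeR (quasi-likelihood, Benjamini-Hochberg over all 13900 genes kept). An adjusted p of 0.05 was passed by 0 of 42 tested members and by 0% of all tested genes, and the smallest adjusted p among the members was 0.223. The unadjusted p lay under 0.05 for 9 members, all higher with NETs, which is 21.4% of the 42, where 6.72% of all genes were higher and 6.06% lower by the same rule. They were the chaperone cofactors Sdf2l1, Manf, Dnajb11 and Hyou1, the isomerases Pdia6 and Ppib, the transcription factor Xbp1 and the translocon genes Sec61a1 and Ssr2. All but Hyou1 also reached that p by DESeq2 (8 members, where 3.64% of the 24780 genes it tested without the filter were higher). The 24780 include the low-count genes that the filter removes, of which Chac1 is the only member, so that share is not a like background. After adjustment DESeq2 called 1 member, Sdf2l1 (adjusted p = 0.0317), of the 33 it gave an adjusted p, where it called 2.39% of the 6778 genes given one.

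The same 8 members were higher with RLE scaling, where 6.4% of all genes were, by limma-voom, where 6.88% were, among genes of at least 5 CPM, where 7.34% were, and with a replicate block, where 5.14% were. Pdia4 joined these 8 in limma-trend on log2(FPKM + 1) and on log2(FPKM + 0.1), where 5.97% and 5.88% of all genes were higher. With no filter, 10 members were higher and 1, Atf4, lower, where 5.29% of all genes were higher and 4.67% lower, and 3 of 43 members passed the adjusted threshold, where 1.3% of all genes did. These shares too are over a set with many low-count genes, unlike the members. The counts also varied with the library left out. Without NETs replicate 1 or 3 there were 5 and 6 members higher, where 3.03% and 6.22% of all genes were. Without NETs replicate 2, 10 were higher and 1, Atf4, lower, where 7.09% of all genes were higher and 5.75% lower. Without vehicle replicate 1 or 2 there were 5 and 7, where 4.08% and 4% of all genes were. Without vehicle replicate 3, 10 members were higher and 3 lower (Dnajc3, Atf4 and Ddit3) of 43 tested, where 11% of all genes were higher and 9.48% lower, so the lower members were no larger a share than the background.

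Over all members the differences were small. The median log2 fold change was 0.06 over the 42, with 27 above 0 and 15 below, where the median of all tested genes was 0.00 and 50.2% of them lay above 0. The 3 NETs libraries lay wholly above the 3 vehicle libraries in 8 members (19.0%, against 7.68% of all genes) and wholly below in 3, which were Ern1, Dnajc3 and Edem1 (9.04% of all genes lay below). Without vehicle replicate 3, 15 lay wholly above and 6 wholly below, where 18.1% of all genes lay above and 19.8% below. With any other library left out, between 8 and 12 members lay above, where between 10.3% and 13.9% of all genes did, and between 3 and 5 lay below, where between 12.1% and 16.3% did. Reads on the 43 genes made up 0.548%, 0.562% and 0.524% of NETs replicates 1 to 3 and 0.519%, 0.506% and 0.550% of vehicle replicates 1 to 3. These shares overlapped between the groups.

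**Figure D3:**
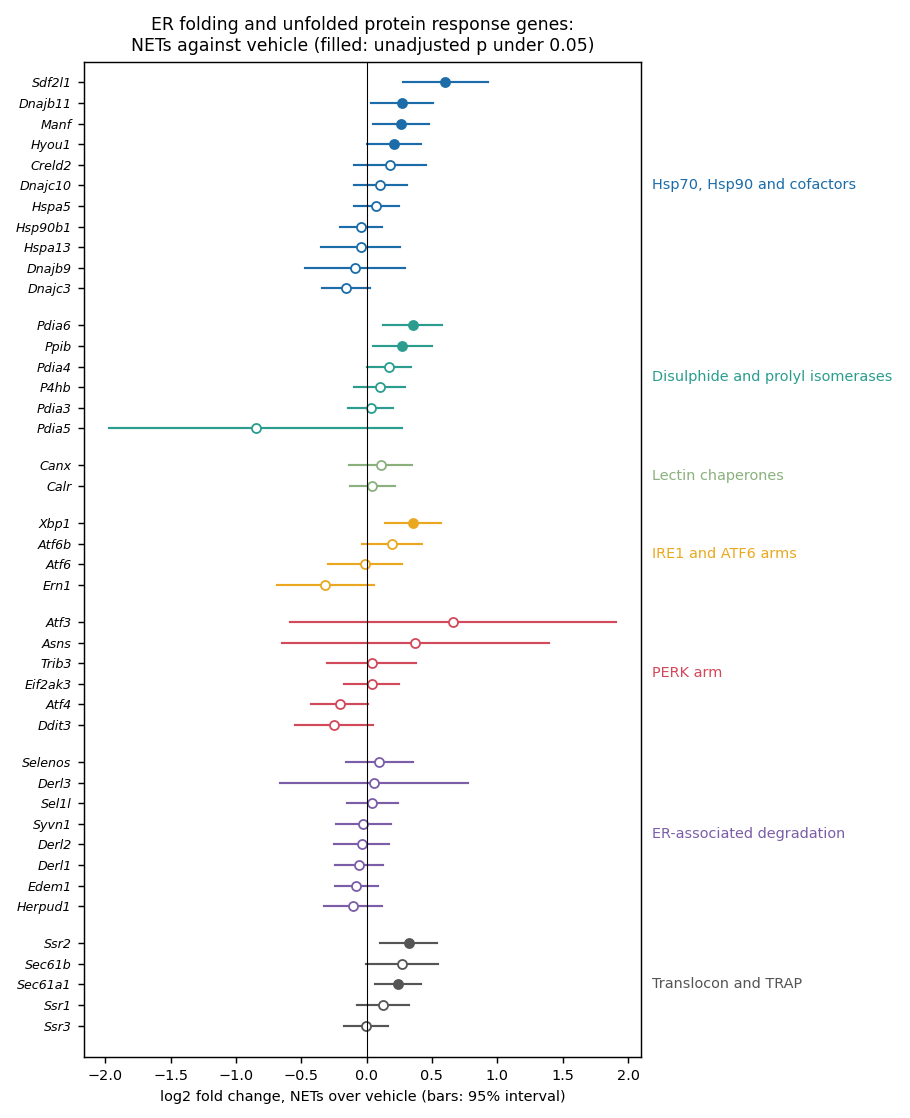
Log2 fold change, NETs over vehicle, of the 42 tested members by role (points) with 95% intervals (bars), where filled points have an unadjusted p under 0.05. The 9 filled points all lie to the right of 0 and come from 4 of the 7 roles, namely chaperones and cofactors, isomerases, the IRE1 and ATF6 arms and the translocon.

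Among the 11 chaperones and cofactors, the BiP and GRP94 genes themselves did not differ beyond the spread, while 4 genes of BiP partners were higher at an unadjusted p under 0.05. Hspa5 (chromosome 2, 34771970 to 34777547) had 273.9, 289.9 and 275.3 CPM in NETs replicates 1 to 3 and 252.1, 265.9 and 285.2 CPM in vehicle replicates 1 to 3. The groups overlapped, since vehicle replicate 3 exceeded NETs replicate 1, and the log2 fold change of 0.07 had a 95% interval from −0.10 to 0.25 (edgeR adjusted p = 0.729). Hsp90b1 had 375.1, 410.9 and 377.7 CPM with NETs and 409, 397.7 and 402.8 CPM with vehicle. Its log2 fold change of −0.04 (interval −0.21 to 0.12; adjusted p = 0.848) was likewise within the spread, with NETs replicate 2 the highest library of all.

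Sdf2l1 encodes a small luminal protein that joins BiP and its J-domain partners, and it had the smallest p-value of the 42 (ENSMUSG00000022769; chromosome 16, 17130138 to 17132383). It had 44.4, 32.5 and 35.4 CPM with NETs and 25.3, 20.3 and 29.0 CPM with vehicle, so every NETs library lay above every vehicle library. The fitted ratio was 1.52-fold, or 0.60 on the log2 scale (edgeR SE 0.15, unadjusted p = 0.00129, adjusted p = 0.223), and between 0.46 and 0.73 with any library left out. Without vehicle replicate 3, Sdf2l1 passed the adjusted threshold (edgeR adjusted p = 0.0286), as did Xbp1 (adjusted p = 0.0459) and 2.81% of all genes. That library was singled out for its likeness to a NETs library, so this fit adds no independent support. Sdf2l1 held none of the 4 motifs in its window.

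Manf, a luminal and secreted protein that binds BiP, had 77.1, 66.1 and 72.4 CPM with NETs and 61.5, 54.8 and 64.7 CPM with vehicle. Its groups did not overlap, and the log2 fold change was 0.26 (SE 0.10; adjusted p = 0.296). Dnajb11, a J-domain cofactor of BiP, had 96.3, 89.2 and 105.1 CPM with NETs and 70.3, 79.5 and 93.6 CPM with vehicle, where vehicle replicate 3 exceeded NETs replicate 2. Hyou1, the nucleotide exchange factor of BiP, had 92.5, 77.4 and 82.3 CPM with NETs and 72.0, 68.5 and 79.3 CPM with vehicle, again with vehicle replicate 3 above NETs replicate 2. The log2 fold changes were 0.27 for Dnajb11 (SE 0.11; adjusted p = 0.334) and 0.21 for Hyou1 (SE 0.10; adjusted p = 0.388). These last values depended on single libraries. Hyou1 kept an unadjusted p under 0.05 in only 2 of the 6 fits that each leave out a library, Dnajb11 in 3 and Manf in 4. Exons of Manf share 146 bases with Dcaf1 on the opposite strand, and whether counting used strand is not stated in what was at hand, so its reads cannot be fully told apart from that gene's.

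The other cofactors scattered around 0. Creld2, a luminal protein induced by ER stress, stood at 0.18 and the ER reductase Dnajc10 at 0.10, while Hspa13 stood at −0.05 and the J-domain protein Dnajb9 at −0.09. Dnajc3, the J-domain protein known as p58IPK, was lower in all 3 NETs libraries, at between 174.3 and 178.8 CPM with NETs and between 183.6 and 217.8 CPM with vehicle, with a fitted log2 ratio of −0.16 (edgeR SE 0.09, adjusted p = 0.457). Over the 11 genes the median log2 fold change was 0.10, with 7 above 0.

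**Figure D4:**
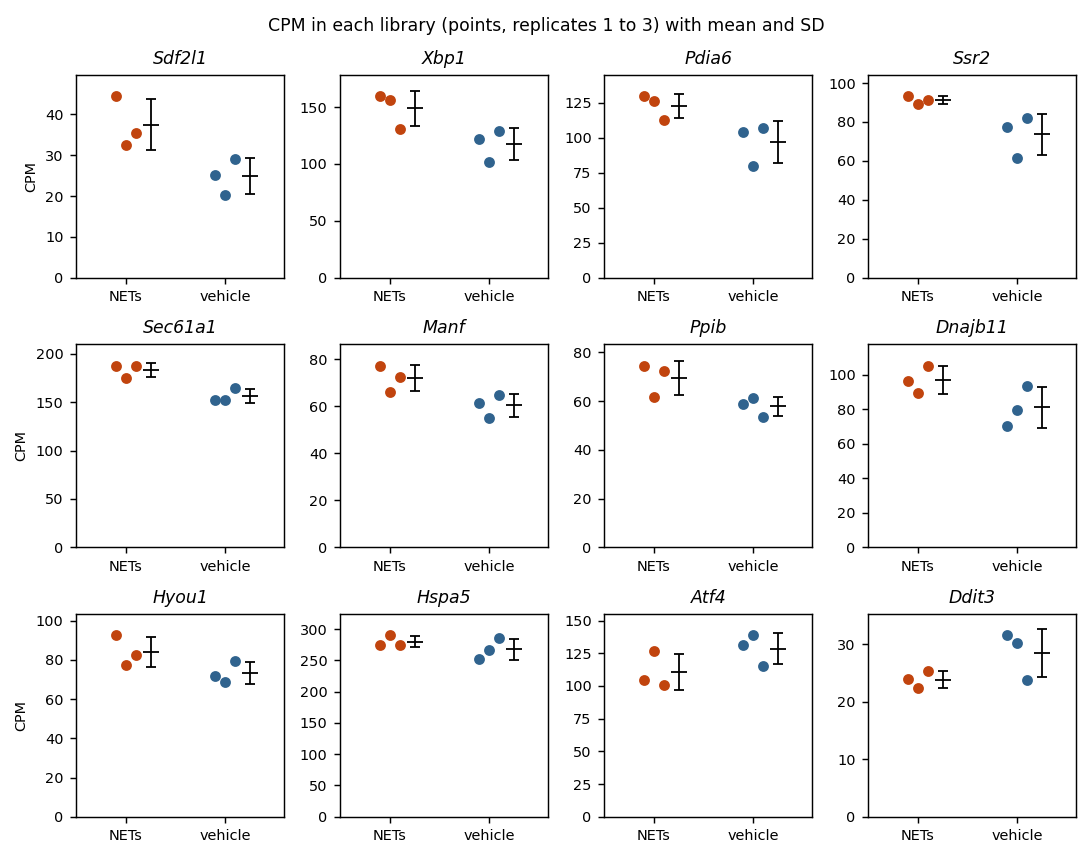
CPM (y axis from 0) in each of 3 NETs libraries (left) and 3 vehicle libraries (right), with mean and SD beside the points, for the 9 members with an unadjusted p under 0.05 and for Hspa5, Atf4 and Ddit3. In Sdf2l1, Xbp1, Pdia6, Ssr2, Sec61a1, Manf and Ppib the NETs points all lie above the vehicle points, and in the other panels the groups overlap.

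The isomerases, which form and rearrange disulphides or turn prolines, had a median log2 fold change of 0.13 over 6 genes, with 5 above 0. Pdia6 (chromosome 12, 17266545 to 17284770), a disulphide isomerase that binds BiP and restrains IRE1 signalling, had 129.7, 126.1 and 113.1 CPM with NETs and 104.4, 79.9 and 106.7 CPM with vehicle. All NETs libraries lay above all vehicle libraries, with vehicle replicate 2 far lowest, and the log2 fold change was 0.35 (SE 0.11; adjusted p = 0.224). It reached an unadjusted p under 0.05 with any library left out, and it is the member with the smallest p whose window, printed above, holds an ERSE. Of the 9 members with an ERSE match 1, Pdia6, was at that p in the fit of all 6 libraries, and 4 of the members at that p (Hyou1, Manf, Sec61a1 and Ssr2) had no window to search. Among members with a match, the median log2 fold change was 0.05, with 6 of 9 above 0. Of the 4 tested members with a CARE match, 0 reached that p and 3 lay above 0. Of all tested genes, 6.72% were higher and 6.06% lower at that p, and 50.2% lay above 0. Counts over so few members with a match cannot be told apart from these shares.

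Ppib, the ER cyclophilin B, had 74.5, 61.6 and 72.3 CPM with NETs and 58.9, 61.3 and 53.7 CPM with vehicle, so that NETs replicate 2 only just exceeded vehicle replicate 2 (61.59 against 61.25 CPM). Its log2 fold change was 0.27 (SE 0.11; adjusted p = 0.305), and it kept an unadjusted p under 0.05 in only 2 of the 6 fits that leave out a library. Pdia4, another BiP-linked isomerase, lay wholly higher, at between 150.1 and 160 CPM with NETs and between 135.2 and 144.5 CPM with vehicle, yet its log2 ratio of 0.17 (SE 0.08) missed the unadjusted threshold of edgeR's test (unadjusted p = 0.0513, adjusted p = 0.393). P4hb had 383.3, 405.9 and 336.1 CPM with NETs and 367.4, 314.5 and 377.6 CPM with vehicle, which overlapped (log2 fold change 0.10, interval −0.10 to 0.29; adjusted p = 0.682). Pdia3 stood at 0.03 (interval −0.14 to 0.20). Pdia5, with under 40 reads in any library, stood at −0.85 (interval −1.97 to 0.27), which this depth cannot resolve.

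Both lectin chaperones, which hold glycoproteins in the ER until they fold, overlapped between groups. Calr had 495.2, 506.6 and 464.1 CPM with NETs and 460.8, 460 and 513.4 CPM with vehicle, a log2 fold change of 0.04 (interval −0.13 to 0.21; adjusted p = 0.862). Canx stood at 0.11 (interval −0.13 to 0.35), with 313.8 CPM in NETs replicate 3 and 298.6 CPM in vehicle replicate 2 as the low library of each group. The abundant lectins therefore showed no difference beyond the spread, and the intervals leave room for a change of up to 0.35 on the log2 scale.

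In the IRE1 arm the fitted ratios of Xbp1, the substrate, and Ern1, its endonuclease, had opposite signs, and neither passed the adjusted test. Xbp1 (ENSMUSG00000020484; chromosome 11, 5520659 to 5525893) had 159.5, 156.4 and 131.1 CPM with NETs and 122.1, 102.1 and 128.7 CPM with vehicle. The groups did not overlap, although NETs replicate 3 and vehicle replicate 3 lay close, and the fitted ratio was 1.28-fold, or 0.35 on the log2 scale (edgeR SE 0.10, unadjusted p = 0.0034, adjusted p = 0.223). Ern1 had 12.1, 10.6 and 11.6 CPM with NETs and 13.7, 12.4 and 16.9 CPM with vehicle, wholly lower, with a log2 ratio of −0.32 (SE 0.17, edgeR adjusted p = 0.465). The ratio of Xbp1 reads to Ern1 reads, which does not depend on library scaling, was 13.2, 14.8 and 11.3 with NETs and 8.93, 8.24 and 7.61 with vehicle. By a two-sided exact permutation test that ratio had p = 0.1, the smallest that 3 against 3 libraries allow (adjusted p = 0.133 over 4 ratios, which were chosen after the values were seen). Because Xbp1 lay wholly higher and Ern1 wholly lower, their ratio had to separate the groups. That p therefore adds nothing to the values of each gene.

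The counts are of whole genes, so they do not tell XBP1's spliced mRNA from the unspliced form. IRE1 removes 26 bases from exon 4 of Xbp1, at chr11:5524279-5524304 on build GRCm38, which shift the reading frame. They are shown in capitals within their flanks from the GENCODE M21 transcript, since they are what reads would have to span or lack for the splicing to be measured.
Xbp1: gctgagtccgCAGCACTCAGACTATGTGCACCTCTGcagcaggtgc

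The letters C, any base and G on either side of each cut mark the loops that IRE1 recognises, and a search of the transcript for these letters 26 bases apart also met a stretch in exon 1, which is not the known site. In the ATF6 arm neither gene differed beyond the spread. Atf6 had 33.3, 30.7 and 24.5 CPM with NETs and 29.2, 29.6 and 31.1 CPM with vehicle, so that NETs libraries were both the highest and the lowest (log2 fold change −0.01; interval −0.29 to 0.27). Atf6b stood at 0.19 (SE 0.11; adjusted p = 0.462), with vehicle replicate 3 at 59.2 CPM inside the NETs range of 56.2 to 63.3 CPM.

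The PERK arm showed no member at an unadjusted p under 0.05 in either direction among 6 tested, where 12.8% of all genes reached it. It had 4 log2 ratios above 0, 2 below and a median of 0.04. The 2 below were those of the transcription factor genes Atf4 and Ddit3. Atf4 (chromosome 15, 80255184 to 80257541) had 104.8, 126.6 and 100.5 CPM with NETs and 131.6, 138.7 and 115.6 CPM with vehicle, with NETs replicate 2 inside the vehicle range. Its log2 fold change was −0.21 (interval −0.43 to 0.01; adjusted p = 0.415). Ddit3, which encodes CHOP, had 23.9, 22.3 and 25.3 CPM with NETs and 31.5, 30.3 and 23.8 CPM with vehicle, where vehicle replicate 3 fell among the NETs libraries (log2 fold change −0.25; interval −0.55 to 0.05; adjusted p = 0.473). Exons of Ddit3 share 68 bases with Mars on the opposite strand. Without vehicle replicate 3 both Atf4 and Ddit3 were lower at an unadjusted p under 0.05, with edgeR adjusted p of 0.143 and 0.140, and without NETs replicate 2 Atf4 was (adjusted p = 0.268). At that p 9.48% of all genes were lower without vehicle replicate 3 and 5.75% without NETs replicate 2.

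Eif2ak3, the sensor of this arm, had 87.5, 90.1 and 91.8 CPM with NETs and 76.7, 91.7 and 96.2 CPM with vehicle (log2 fold change 0.04; interval −0.17 to 0.25). All 3 NETs values fell inside the range of the vehicle libraries. Asns had 32, 26 and 20 reads with NETs and 29, 11 and 19 reads with vehicle, and the interval of its log2 fold change, from −0.65 to 1.39, shows how little this depth resolves. Atf3, a stress-induced transcription factor, had 24, 46 and 10 reads with NETs and 9, 17 and 21 reads with vehicle, a log2 ratio of 0.66 (interval −0.59 to 1.91), and the pseudokinase gene Trib3 stood at 0.04. The ratio of Xbp1 to Atf4 reads was 1.52, 1.24 and 1.31 with NETs and 0.928, 0.736 and 1.11 with vehicle, which did not overlap (exact permutation p = 0.1; adjusted p = 0.133). The ratio of Sdf2l1 to Hspa5 reads was 0.162, 0.112 and 0.129 with NETs and 0.1, 0.0764 and 0.102 with vehicle, with the same p-values, and that of Dnajb11 to Hspa5 overlapped (exact permutation p = 0.2). These ratios too were chosen after the values were seen. Xbp1 and Sdf2l1 already lay wholly higher on their own, so the p-values of their ratios are not further evidence.

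Genes of ER-associated degradation, which return misfolded protein to the cytosol for the proteasome, lay closest to 0, with log2 fold changes from −0.10 to 0.10 over 8 genes and a median of −0.03. Herpud1, a scaffold of the degradation complex and a standard marker of the response, had 73.5, 91.3 and 86.2 CPM with NETs and 83.1, 99.5 and 89.4 CPM with vehicle (log2 fold change −0.10; interval −0.33 to 0.12; adjusted p = 0.707). Its window holds both the ERSE-II and the CARE printed above, and its groups overlapped. Edem1, a mannosidase-like protein that marks glycoproteins for disposal, was the most abundant of the 8 per length and lay wholly lower, at between 297.3 and 316.2 CPM with NETs and between 320.2 and 337.9 CPM with vehicle, by only −0.08 (adjusted p = 0.690). The ubiquitin ligase gene Syvn1 and its partner Sel1l stood at −0.03 and 0.04, the derlins Derl1, Derl2 and Derl3 at −0.06, −0.04 and 0.05, and Selenos at 0.10. Exons of Derl2 share 231 bases with Mis12 and those of Syvn1 share 91 bases with Mrpl49, both on the opposite strand.

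The translocon, through which new chains enter the ER, had a median log2 fold change of 0.24 over 5 genes with 4 above 0, the largest of the 7 roles in this fit. Ssr2, a subunit of the translocon-associated protein complex TRAP (chromosome 3, 88575876 to 88588419), had 93.2, 89.3 and 91.0 CPM with NETs and 77.2, 61.6 and 81.9 CPM with vehicle. Sec61a1, the channel itself (chromosome 6, 88503579 to 88518905), had 187.5, 175 and 187.7 CPM with NETs and 152.1, 152.7 and 165 CPM with vehicle. In both genes the NETs libraries were tightly grouped and lay above all vehicle libraries, with log2 fold changes of 0.32 for Ssr2 (SE 0.10; adjusted p = 0.244) and 0.24 for Sec61a1 (SE 0.08; adjusted p = 0.264).

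No other subunit of these complexes on either list reached an unadjusted p under 0.05. Sec61b, a small subunit of the channel, stood at 0.27 and overlapped, with NETs replicate 2 at 39.6 CPM below vehicle replicates 1 and 3 at 44.7 and 40.4 CPM (SE 0.13; unadjusted p = 0.0539; adjusted p = 0.399). Of the other TRAP subunits, Ssr1 stood at 0.12 (interval −0.07 to 0.32) and Ssr3 at −0.01 (interval −0.17 to 0.16). Ssr4, Sec61g and Sec61a2 come from the wider pathway list and are named after their values were seen. Ssr4, the last TRAP subunit, stood at 0.13 (interval −0.07 to 0.33), with every NETs library (57.0 to 62.7 CPM) above every vehicle library (53.0 to 55.2 CPM), and Sec61g, of the channel, stood at 0.15 (interval −0.10 to 0.40) and overlapped. Sec61a2, the other large channel subunit, stood at −0.29 (unadjusted p = 0.179 by edgeR). Differences between subunits were not tested.

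**Figure D5:**
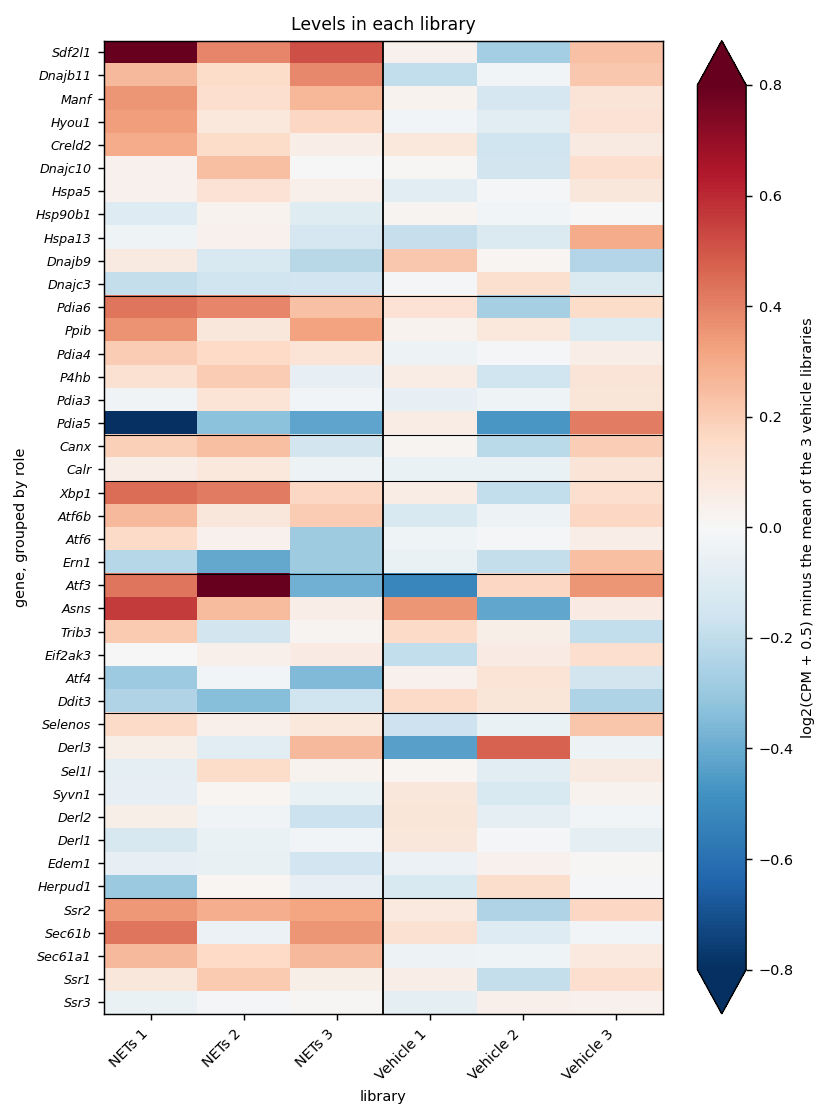
Log2(CPM + 0.5) of the 42 tested members (rows, by role) in each library (columns, 3 NETs libraries then 3 vehicle libraries) minus the mean of the vehicle libraries, red for higher and blue for lower. All 3 NETs columns are red for Sec61a1 and Ssr2 and, among rows of other roles, for Sdf2l1, Pdia6 and Xbp1. The same holds for further rows, Manf, Ppib and Pdia4 among them. Vehicle replicate 3 is redder than the other vehicle columns in most chaperone, isomerase and lectin rows.

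The libraries also differed within each treatment. NETs replicate 1 was the highest of the 6 libraries for 14 of the 42 members and vehicle replicate 2 the lowest for 16, with vehicle replicate 1 the lowest for 12. The mean over the 42 of log2(CPM + 0.5), set against the vehicle mean, was 0.10, 0.09 and 0.02 in NETs replicates 1 to 3 and −0.01, −0.06 and 0.07 in vehicle replicates 1 to 3. Vehicle replicate 3 thus stood above NETs replicate 3. For the translocon the same mean was 0.22, 0.12 and 0.20 with NETs and 0.03, −0.11 and 0.08 with vehicle, which did not overlap. For the chaperones and cofactors it was 0.17, 0.09 and 0.08 with NETs and −0.01, −0.07 and 0.08 with vehicle, where vehicle replicate 3 reached the level of the NETs libraries.

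Beyond the 43 genes, 116 other genes of the pathway were listed, of which 114 were matched and 109 tested, and 0 passed edgeR's adjusted threshold. At an unadjusted p under 0.05, 14 were higher (12.8%, against 6.72% of all genes) and 3 lower (where 6.06% of all genes were), and their median log2 fold change was 0.09. N-glycosylation genes lay above 0 in 13 of 13, where 50.2% of all genes did, with a median of 0.17. At that p 3 were higher (23.1%), which were the trimming glucosidase gene Mogs (0.47), the oligosaccharyltransferase subunit Ddost (0.28) and its partner Rpn1 (0.25). Of 19 genes for signal peptide handling and translocation, 4 were higher at that p (21.1%) and 0 lower, with a median of 0.11, among them the signal peptidase subunit Spcs2 (0.28) and the signal recognition particle genes Srp9 (0.22) and Srp54a (0.89). Srp54a has near-identical copies in the mouse genome, so its value is uncertain.

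Other folding genes were mixed, with 3 higher (14.3%) and 2 lower at that p among 21 tested and a median of −0.04. By the same rule 6.72% of all genes were higher and 6.06% lower. The ER oxidase gene Ero1lb was lower (−0.42), and the chaperone Cnpy3 (0.39) and Creld1 (0.70) were higher. Among 16 other degradation genes, 1 was higher (6.25%, no larger than the share of all genes), the ubiquitin-conjugating enzyme Ube2g2 (0.45), with a median of 0.01. Nploc4 (0.19) and Edem2 (0.23) did not reach that p. None of 17 ER-to-Golgi transport genes reached it, by edgeR with 0 after adjustment, with Lman2 at 0.16, Sec23a at −0.23 and Sec13 at 0.19. Among 23 genes of the integrated stress response, 3 were higher (13%) and 1 lower. The 3 were the mTORC1 inhibitor gene Ddit4 (0.34), the serine synthesis enzyme Phgdh (0.41) and the amino acid transporter Slc7a5 (0.39). The lower gene was Ppp1r15a (−0.40), whose groups overlapped. The list's median was 0.12.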

How the data were processed

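Read counts per gene, which the authors deposited for 6 libraries with no normalization, were used as they stand. The submitters' processing notes name STAR, DESeq2 and the build mm9 without roles. No source at hand names the counting program or says whether strand was used. Of the 54409 genes shared with GENCODE M21 (GRCm38), 98.3% had the same coordinates in the deposited table, as did all 43 members, so coordinates are of GRCm38. FPKM values, which the authors deposited, served for levels between genes and for 2 alternatives.

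Genes kept by filterByExpr (13900) were tested with edgeR 4.0.16 (TMM, robust quasi-likelihood fit, two-sided) in R 4.3.3 with a model of treatment alone, with Benjamini-Hochberg adjustment over all of them and a threshold of 0.05. Intervals are 95% from that fit. CPM uses the library's total reads. With 3 libraries per group, median standard errors of the log2 ratio were 0.103 for the members and 0.146 for all tested genes. Alternatives were DESeq2 1.42.0, limma 3.58.1 (voom, and trend on log2(FPKM + 1) and log2(FPKM + 0.1)), RLE scaling, 2 filters, each library left out, and a replicate block. The steps were tested on simulated data: of 67 genes changed 1.5-fold, edgeR recovered 38.8%, and of 67 changed 2-fold, 92.5%, among 13691 genes run for NETs against vehicle. Each simulated gene had the same coefficient of variation between libraries (0.134), and no simulated library deviated from its group. These shares check the steps and are not the power of the real libraries.

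The members, their roles, the other gene lists and the tests were chosen with earlier results of these data known. Values in every library are given for each member with an unadjusted p under 0.05 and for a fixed panel (Hspa5, Hsp90b1, Calr, P4hb, Sdf2l1, Xbp1, Ern1, Atf6, Eif2ak3, Atf4, Ddit3, Asns and Herpud1), 20 genes in all. Of each other list, up to 3 genes with the smallest p are named, and beside these Ssr4, Sec61g, Sec61a2 and Ppp1r15a, picked after their values were seen. Of the listed markers, the natural killer set summed to between 1.86 and 3.91 CPM with NETs and between 1.68 and 4.22 CPM with vehicle, the erythroid set to between 0.757 and 2.57 CPM with NETs and between 0.804 and 1.12 CPM with vehicle, and the CD8 set to between 13.0 and 19.5 CPM with NETs and between 18.4 and 20.8 CPM with vehicle.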

Additional observations from a re-analysis of the deposited data

How the results depend on the processing

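The number of genes past the adjusted threshold moved with the method. It was 0 in the edgeR fit reported, 162 with DESeq2, 322 with no filter on low counts, 1 with limma-voom and 2 with limma-trend at either FPKM pseudocount. With a library left out it lay between 0 and 405, the 405 being without vehicle replicate 3. Among the members it was 1 with DESeq2 (Sdf2l1), 3 with no filter (Sdf2l1 at a log2 fold change of 0.61, Pdia6 and Xbp1), 0 with the other methods, and between 0 and 2 with a library left out. Members at an unadjusted p under 0.05 numbered between 8 and 11 over the alternatives that keep all libraries and between 5 and 13 with a library left out, the extremes being without NETs replicate 1 or vehicle replicate 1 and without vehicle replicate 3. Sdf2l1, Pdia6, Xbp1 and Ssr2 were among them under each of the 14 alternatives. The members' median log2 fold change stayed between 0.03 and 0.12, and the causes of these shifts were not tested. Of the 20 genes detailed, 2 changed sign with a library left out. Atf6 ranged from −0.11 to 0.10 and was above 0 without NETs replicate 3 (0.10) and without vehicle replicate 3 (0.015), and Eif2ak3 ranged from −0.065 to 0.10 and was below 0 without vehicle replicate 1. Same-numbered libraries did not deviate together (correlations of −0.04, −0.08 and −0.21), and differently numbered libraries had correlations from −0.215 to 0.274. With so few libraries these values cannot decide whether the replicate numbers stand for pairs, which is not stated. With the replicate block 8 members reached an unadjusted p under 0.05 and 0 passed after adjustment. Depth limits Pdia5, Asns, Atf3 and Chac1, each with under 50 reads in every library.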
